A study of Mus musculus with 6 samples.

Results

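miR-146a and miR-146b are paralogous microRNAs (miRNAs), small regulatory RNAs that silence messages, and their hairpins give 4 mature arms, mmu-miR-146a-5p, mmu-miR-146a-3p, mmu-miR-146b-5p and mmu-miR-146b-3p (written without mmu below). All 4 were found by their exact names among the 1542 entries of a table of kidney miRNA counts, of which 1190 carry a miRBase name. The table holds 6 small RNA libraries from the kidneys of female mice aged 17 weeks, 3 from C57BL/6 mice, the wild-type controls, and 3 from MRL/lpr mice (MRL/MpJ-Fas<lpr>/J). MRL/lpr mice lack normal Fas, a death receptor that limits lymphocyte numbers, and develop a spontaneous lupus-like disease with nephritis. The strains differ in genetic background, Fas allele and disease together, and no MRL mice with intact Fas were analysed here, so these cannot be told apart. No treatment is named for either strain, and the labels do not say whether each library is a separate animal.

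miR-146a is best known as a brake on innate immune signalling. NF-κB, the transcription factor activated by Toll-like and interleukin-1 receptors, drives its transcription, and the mature miRNA represses the adaptor TRAF6 and the kinase IRAK1, which lie upstream of NF-κB. In mice, loss of miR-146a leads to chronic inflammation and autoimmunity, and miR-146b is thought to share many of its targets because the arms begin with the same bases.

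The 4 arms are shown here because their similarity decides both what the paralogs can repress and how well their reads can be told apart. The sequences are those of RefSeq (GRCm38.p6), read 5′ to 3′, with the seed (bases 2 to 8, which pair with target messages) in capitals.
miR-146a-5p: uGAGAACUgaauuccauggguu
miR-146b-5p: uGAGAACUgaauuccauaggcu
miR-146a-3p: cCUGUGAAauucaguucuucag
miR-146b-3p: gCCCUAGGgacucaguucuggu

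The 5p arms share their seed, and no other mature miRNA among the 1679 names of the RefSeq table has it. Counted from 1 at the 5′ end, the 5p arms are identical over their first 17 bases and at 20 of 22 bases in all. They differ by G18A and U21C, with the base of miR-146a-5p given before that of miR-146b-5p. A read ending before base 18 would therefore match both 5p arms, and in the sources used here the rule for assigning such reads is not given. The 3p arms have different seeds and are identical at 4 of 22 bases.

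The hairpins are shown with their mature arms in capitals, since these mark which strand of each stem the counts below come from.
miR-146a hairpin: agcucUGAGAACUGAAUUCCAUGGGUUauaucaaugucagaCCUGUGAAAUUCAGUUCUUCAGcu
miR-146b hairpin: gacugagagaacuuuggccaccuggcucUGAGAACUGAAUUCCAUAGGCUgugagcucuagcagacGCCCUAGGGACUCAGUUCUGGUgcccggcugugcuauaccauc

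The miR-146a hairpin (gene Mir146) lies on the minus strand of chromosome 11 at chr11:43374397-43374461 and overlaps no other gene in GENCODE M21. Its nearest protein-coding gene is Pttg1, 45789 bases away. The miR-146b hairpin (gene Mir146b) lies on the plus strand of chromosome 19 at chr19:46342762-46342870. It sits in an intron of Mfsd13a, which runs in the same direction, and 1 Mfsd13a transcript spans it with no exon overlapping it. Nfkb2, which encodes the NF-κB subunit p100/p52 and was looked up for that role, lies 30377 bases from it.

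Library totals ran from 5259528 to 6773829 counts, and 451 entries passed a filter on low counts. Levels are given as CPM, counts scaled to a common library size after TMM adjustment for differences in composition between libraries. Of the tissue label's defining miRNAs, all 9 listed for kidney epithelium were present in every library, with a summed level of 72380 to 122276 CPM. Among the control libraries, C57BL/6 replicate 2 stood apart, and results are given with and without it. It was singled out for its high miR-146a and leukocyte miRNA values, so leaving it out raises these miRNAs in MRL/lpr by construction. Its kidney epithelium sum, 72380 CPM, was below the 111642 to 122276 CPM of the other 5 libraries. Its erythroid sum (miR-451a, miR-144-3p and miR-486a-5p) was 594 CPM, against 2841 to 4305 CPM in the other 5. Its mesenchymal sum (miR-143-3p, miR-145a-5p, miR-214-3p and both miR-199a arms) was 43708 CPM, against 27034 to 36890 CPM in the other 5. The part of these differences in the results was not tested.

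Nearly all miR-146 counts came from the 5p arm of miR-146a. miR-146a-5p ranked 37th and 38th by count among the entries of C57BL/6 replicates 3 and 1, 13th in C57BL/6 replicate 2, and between 29th and 32nd in the MRL/lpr libraries. miR-146b-5p ranked between 128th and 157th. The deposited counts of miR-146a-5p were 24494, 159196 and 30588 in C57BL/6 replicates 1, 2 and 3 and 59441, 37682 and 50622 in MRL/lpr replicates 1, 2 and 3. Those of miR-146b-5p were 414, 753 and 595 in controls, against 1301, 677 and 830 in MRL/lpr kidneys. All 22-base arms are counted over the same length, but adapter ligation favours some RNA ends, so a ratio of counts between paralogs is less certain than a comparison of either between libraries.

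The 3p arms, the strands usually discarded when the guide strand is loaded, were at the edge of detection. miR-146a-3p was at 0 counts in all 3 C57BL/6 libraries, with 1, 0 and 2 counts in MRL/lpr replicates 1, 2 and 3. miR-146b-3p had 1 count in C57BL/6 replicate 3, 1 in MRL/lpr replicate 1 and 0 elsewhere. A count of 0 allows up to 3 counts, or 0.424 to 0.614 CPM depending on the library. Neither 3p arm passed the filter on low counts, so 2 of the 4 arms were tested, and no strain difference in a 3p arm was detectable at this depth. Over the 6 libraries the 3p arm made up 3 counts against 362023 of the 5p arm for miR-146a, a share of 8.29e-04% (exact 95% interval 1.71e-04% to 0.00242%). For miR-146b it made up 2 counts against 4570, a share of 0.0437% (exact 95% interval 0.0053% to 0.158%). These intervals cover counting error only. Among the 138 hairpins with both arms listed and at least 1000 counts, the median share of the minor arm was 0.892%. A lower share than that of miR-146a was found in 4 hairpins, and a lower share than that of miR-146b in 20.

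The strain difference in miR-146a-5p did not pass the test with all libraries. Its level in C57BL/6 replicate 2 exceeded every MRL/lpr value, while the other C57BL/6 libraries lay below them all. It had 5011, 25574 and 4765 CPM in C57BL/6 replicates 1, 2 and 3 and 8393, 7314 and 8380.3 CPM in MRL/lpr replicates 1, 2 and 3. The C57BL/6 mean was 11784 ± 11944 CPM and the MRL/lpr mean 8029 ± 619.6 CPM (SD, n = 3 each). The highest C57BL/6 value was 5.37 times the lowest, and the highest MRL/lpr value 1.15 times the lowest. The log2 fold change of MRL/lpr over C57BL/6 was -0.55 ± 0.77 SE with a 95% interval from -2.58 to 1.48 (edgeR quasi-likelihood test, adjusted p = 0.721). The interval therefore holds both lower and higher levels in MRL/lpr.

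miR-146b-5p was higher in every MRL/lpr library than in every C57BL/6 library, but the difference did not pass the test over all miRNAs. It had 84.7, 121 and 92.7 CPM in C57BL/6 replicates 1, 2 and 3 and 184, 131 and 137 CPM in MRL/lpr replicates 1, 2 and 3. C57BL/6 replicate 2 was again the highest of its group, at a level close to the lowest MRL/lpr library. The means were 99.5 ± 19.1 and 151 ± 28.6 CPM (SD, n = 3 each), a fitted 1.52-fold difference. The log2 fold change was 0.60 ± 0.24 SE with a 95% interval from 0.070 to 1.13 (edgeR quasi-likelihood test, adjusted p = 0.175). Of the 451 tested miRNAs, 14.0% were higher in MRL/lpr with no overlap between the groups, so this arrangement was common.

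**Figure D1:**
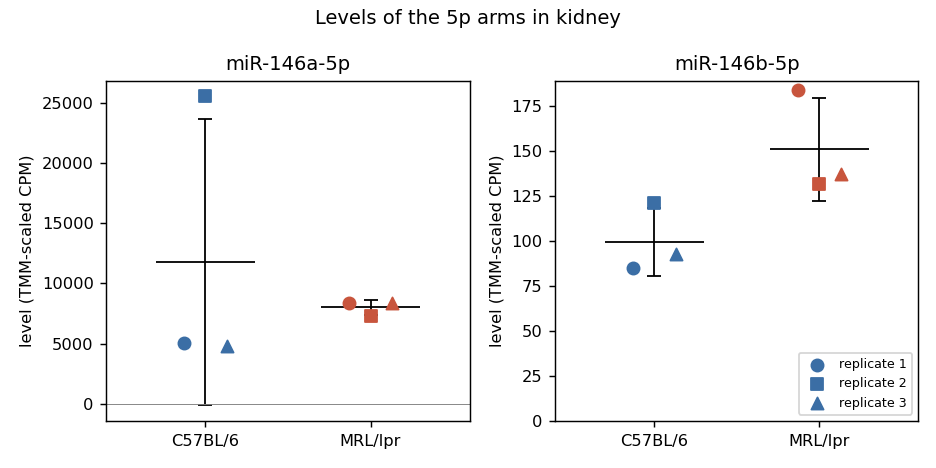
Levels of miR-146a-5p (left) and miR-146b-5p (right) in TMM-scaled CPM in each kidney library, with C57BL/6 in blue and MRL/lpr in red, marker shape giving the replicate, horizontal lines the group mean and bars 1 SD (n = 3). C57BL/6 replicate 2 lies at 25574 CPM for miR-146a-5p, above all other libraries, while for miR-146b-5p its 121 CPM lies below every MRL/lpr library.

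With all libraries, 0 of the 2 tested arms passed an adjusted p of 0.05 in edgeR, DESeq2 or limma-voom, and 1 of 2 (miR-146b-5p) had an unadjusted edgeR p under 0.05, as did 94 of all 451 miRNAs. The background was 6.21% of 451 miRNAs past the adjusted threshold in edgeR (4.21% higher and 2.00% lower in MRL/lpr).

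Without C57BL/6 replicate 2, miR-146a-5p was higher in MRL/lpr. The C57BL/6 mean was then 4888 ± 174 CPM (SD, n = 2) against 8029 ± 619.6 CPM in MRL/lpr (SD, n = 3), a 1.67-fold difference. The log2 fold change was 0.74 ± 0.15 SE with a 95% interval from 0.41 to 1.07 (edgeR adjusted p = 0.0105). miR-146b-5p had 88.7 ± 5.65 CPM (SD, n = 2) against 151 ± 28.6 CPM (SD, n = 3) and a log2 fold change of 0.79 ± 0.24 SE, which did not pass (95% interval 0.25 to 1.32, edgeR adjusted p = 0.0634). So 1 of the 2 arms was called higher, where 8.94% of 470 miRNAs were called higher and 11.5% in either direction, and neither arm overlapped between groups, as for 23.8% of the 470 that lay higher in MRL/lpr. Given why that library was singled out, the miR-146a-5p call without it gives no independent support to a strain difference.

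The paralogs parted most clearly in that library. Its miR-146a-5p level was 5.23 times the mean of C57BL/6 replicates 1 and 3, and its miR-146b-5p level 1.36 times. The median of this ratio over the 451 tested miRNAs was 0.966, and 47 miRNAs had a ratio of at least 2. miR-146a-5p ranked 6th of 451 and miR-146b-5p 119th. Among the 71 miRNAs with a mean of at least 1000 CPM, none had a higher ratio than miR-146a-5p. Since that library was singled out for its high miR-146a, the ratio and ranks of miR-146a-5p restate that choice.

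**Figure D2:**
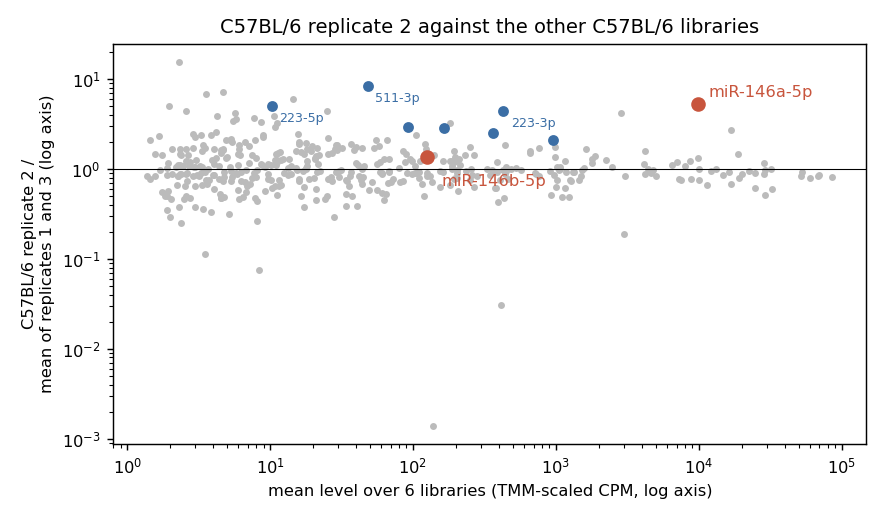
Ratio of the level in C57BL/6 replicate 2 to the mean of C57BL/6 replicates 1 and 3 (log axis) against the mean level over the 6 libraries (TMM-scaled CPM, log axis) for each of the 451 tested miRNAs (grey), with leukocyte miRNAs in blue (3 of them named) and the miR-146 arms in red. miR-146a-5p lies at a ratio of 5.23 among abundant miRNAs that mostly lie near 1, and miR-146b-5p lies at 1.36.

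Within a library, the ratio of the paralogs does not depend on scaling. There were 59.2, 211 and 51.4 miR-146a-5p counts per miR-146b-5p count in C57BL/6 replicates 1, 2 and 3 and 45.7, 55.7 and 61.0 in MRL/lpr replicates 1, 2 and 3. C57BL/6 replicate 2 was the only library outside 45.7 to 61.0, and without it the C57BL/6 values lay inside the MRL/lpr range. The log2 ratio of miR-146b-5p to miR-146a-5p changed by 0.68 ± 0.90 SE between C57BL/6 and MRL/lpr (95% interval -1.09 to 2.45), which did not pass (limma over 450 miRNAs, each relative to miR-146a-5p, adjusted p = 0.995; exact two-sided permutation p = 0.5). In this fit 1.11% of miRNAs were called. Without C57BL/6 replicate 2 the change was 0.037 ± 0.21 SE (95% interval -0.46 to 0.54, limma adjusted p = 0.904; exact permutation p = 0.9), where 44.8% of 469 miRNAs were called. That fit leaves out the 1 library whose ratio departed, so its narrower interval is no separate support that the paralogs changed alike. With 3 against 3 libraries, and also with 2 against 3, the smallest p that the permutation can give is 0.1.

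miR-146b-5p counts were 0.473% of miR-146a-5p counts in C57BL/6 replicate 2, the lowest share, and 1.64% to 2.19% in the other 5 libraries. If reads of miR-146a-5p were assigned to miR-146b-5p at 1 rate in all libraries, that rate could not exceed 0.473%. At that limit it would account for 116 of the 414 miR-146b-5p counts in C57BL/6 replicate 1 and 281 of the 1301 in MRL/lpr replicate 1. Whether 1 rate held in all libraries was not tested, and without it these values set no limit. Counts of some miRNAs did change sharply between libraries. miR-199a-3p had 242 counts in C57BL/6 replicate 3 and 12448 to 36207 in every other library, for which the cause was not tested.

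Leukocyte miRNAs were set beside the miR-146 arms because kidneys of MRL/lpr mice can hold infiltrating immune cells. In bulk tissue a change in the number of cells of a type and a change in RNA per cell cannot be told apart. The list held the pan-leukocyte miR-142a arms, miR-150-5p and miR-342-3p of mature lymphocytes, the granulocyte miR-223 arms and the macrophage miR-511 arms. Of its 8 members 7 were tested, with none called with all libraries, where 6.21% of all 451 were called, and a median log2 fold change of 0.014, against -0.027 over all 451. All 7 had their highest control value in C57BL/6 replicate 2, as did 38.1% of the 451 tested miRNAs, and this restates why that library was singled out. Their summed level was 3421 CPM in that library, 1184 to 1256 CPM in the other C57BL/6 libraries and 1969 to 2549 CPM in MRL/lpr. The miR-146a-5p level followed the same order over these sets of libraries, and the part of leukocyte number in it was not tested. The defining marker miR-142a-3p was never at 0, with 165 counts or more in every library, and 1 member, miR-511-5p, had 0 counts in some libraries.

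With all libraries, the pan-leukocyte miR-142a-3p averaged 49.6 ± 34.2 CPM in controls and 136 ± 21.6 CPM in the MRL/lpr libraries (SD, n = 3 each; log2 fold change 1.45 ± 0.45 SE, edgeR adjusted p = 0.0943). Of the abundant lymphocyte miRNAs, miR-150-5p had 875 ± 411 and 1034 ± 207 CPM, and miR-342-3p had 361 ± 214 and 365 ± 82.1 CPM (SD, n = 3), with edgeR adjusted p of 0.689 and 0.990. miR-142a-5p had a log2 fold change of 1.21, and miR-223-3p, miR-223-5p and miR-511-3p had -0.42, -0.70 and -0.89. None of these passed (edgeR adjusted p = 0.245, 0.738, 0.583 and 0.638). Without C57BL/6 replicate 2, 3 of 7 rose and none fell, where 8.94% of all 470 were called higher, and the median log2 fold change was 0.71 against -2.4e-04 over all 470. These values rise by the choice of the library left out and are given as a description. The 3 were miR-142a-3p (2.21), miR-142a-5p (1.95) and miR-511-3p (0.93), with edgeR adjusted p of 0.00193, 0.00646 and 0.0295.

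Relative to the mean log2 count of the 7 leukocyte miRNAs, miR-146a-5p was lower in every MRL/lpr library than in every C57BL/6 library. The log2 ratios were 6.11, 6.70 and 6.26 in C57BL/6 replicates 1, 2 and 3 and 5.97, 5.82 and 5.73 in MRL/lpr replicates 1, 2 and 3, and C57BL/6 replicate 2 was the highest on this scale too. With all libraries, the log2 fold changes of the 7 members ran from -0.89 for miR-511-3p to 1.45 for miR-142a-3p. The higher miR-142a arms lower a ratio to the list in MRL/lpr. Set against single members by counts in the same library, miR-146a-5p kept this order only for miR-142a-3p and miR-142a-5p. Against miR-150-5p, miR-342-3p, miR-223-3p, miR-223-5p and miR-511-3p the groups overlapped, so the order rests on the arms of 1 hairpin. Ratios that were lower in MRL/lpr without overlap were found for 6.21% of miRNAs, and 0.887% were called in this fit. The difference was -0.52 ± 0.73 SE and did not pass (95% interval -1.98 to 0.94, limma adjusted p = 0.860; exact two-sided permutation p = 0.1, 0.5 after adjustment over 5 ratios). This SE draws on the spread of all 451 miRNAs in the fit. The ratio itself had an SD of 0.30 in C57BL/6 and 0.12 in MRL/lpr (n = 3 each). Without C57BL/6 replicate 2 the difference was -0.35 ± 0.19 SE (95% interval -0.78 to 0.083, limma adjusted p = 0.132), in a fit where 65.3% of 470 miRNAs were called. A lower ratio without overlap was then seen for 73.6% of the 470, so for miR-146a-5p it was not a result about this miRNA.

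miR-146b-5p showed no such order relative to leukocyte miRNAs. Its log2 ratios were 0.23, -1.02 and 0.58 in C57BL/6 replicates 1, 2 and 3 and 0.46, 0.024 and -0.20 in MRL/lpr replicates 1, 2 and 3, so the groups overlapped. The difference was 0.16 ± 0.71 SE with all libraries (95% interval -1.26 to 1.58, limma adjusted p = 0.926) and turned to -0.31 ± 0.26 SE without C57BL/6 replicate 2 (limma adjusted p = 0.314). In contrast to miR-146a-5p, its ratio in C57BL/6 replicate 2 was the lowest of the 6.

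**Figure D3:**
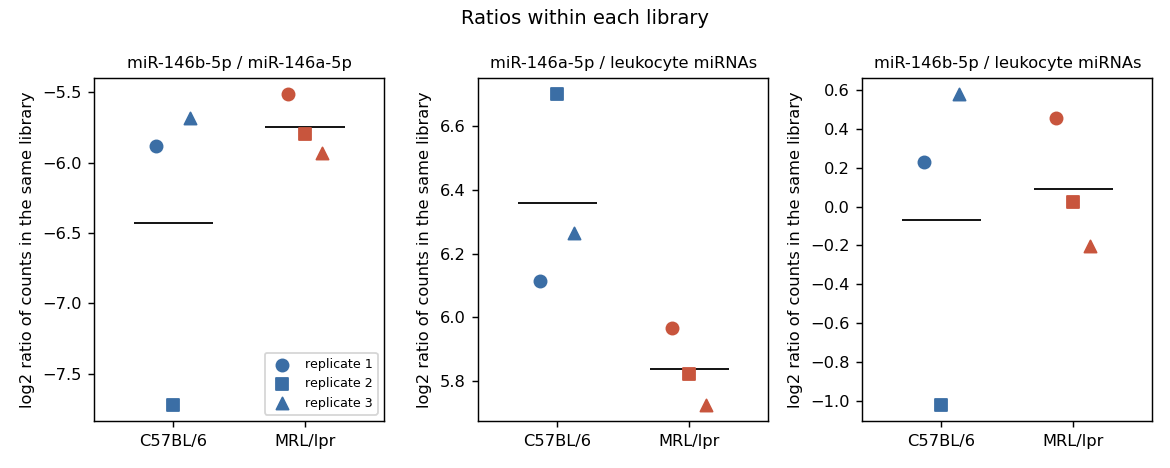
Log2 ratios of counts within each library for miR-146b-5p over miR-146a-5p (left), miR-146a-5p over the mean of 7 leukocyte miRNAs (middle) and miR-146b-5p over the same mean (right), with C57BL/6 in blue, MRL/lpr in red, marker shape giving the replicate and lines the group mean. C57BL/6 replicate 2 is lowest in the left and right panels, and in the middle panel all MRL/lpr libraries (5.73 to 5.97) lie below all C57BL/6 libraries (6.11 to 6.70). Against single members of the list, the order of the middle panel held only for the miR-142a arms.

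Kidney epithelium miRNAs gave a second reference. Relative to the mean log2 count of 9 of them, miR-146a-5p had log2 ratios of 0.077, 2.99 and 0.11 in C57BL/6 replicates 1, 2 and 3 and 0.60, 0.41 and 0.48 in MRL/lpr replicates 1, 2 and 3. The difference was -0.56 ± 0.70 SE (95% interval -2.19 to 1.07, limma adjusted p = 0.564, where 12.0% of 451 miRNAs were called). Without C57BL/6 replicate 2 it turned to 0.40 ± 0.14 SE and missed the threshold (95% interval 0.066 to 0.74, limma adjusted p = 0.0873, where 19.1% of 470 were called). For miR-146b-5p the differences were 0.12 ± 0.33 SE and 0.44 ± 0.23 SE (limma adjusted p = 0.788 and 0.206). Within this list of 9, miR-802-5p and miR-204-5p were themselves higher in MRL/lpr (log2 fold changes 1.75 and 1.52, edgeR adjusted p = 0.00793 and 0.00141), which lowers any ratio to the list in that strain.

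Other miRNAs induced by innate immune signals were counted from a list of 12, which held both arms of miR-155, miR-9, miR-21a, miR-132, miR-212 and miR-147. All 12 were in the table and 8 were tested. With all libraries 1 of 8 rose and none fell, where 4.21% of all 451 were called higher and 2.00% lower. The median log2 fold change was 0.17, against -0.027 over all 451. The 1 that rose was miR-155-5p, a product of activated immune cells, which averaged 70.1 ± 28.1 CPM in controls and 173 ± 27.5 CPM in the MRL/lpr libraries (SD, n = 3 each; log2 fold change 1.30 ± 0.30 SE, edgeR adjusted p = 0.0331). For 7 of the 8, C57BL/6 replicate 2 gave the highest control value, as for 38.1% of the 451, and the ratio to the mean of the other control libraries was 1.89 for miR-155-5p. That is between the ratios of miR-146b-5p and miR-146a-5p. Without that library 3 of 8 rose, where 8.94% of all 470 were called higher, with a median of 0.37 against -2.4e-04 over all 470. Here too the choice of the library left out raises the list. The 3 were miR-155-5p (log2 fold change 1.71), miR-21a-5p (0.92), a miRNA raised in kidney injury, and miR-21a-3p (2.03), with edgeR adjusted p of 0.00431, 0.00592 and 0.0061. miR-132-5p, miR-212-3p and miR-212-5p, from a hairpin pair induced by CREB, did not pass in either fit. Their log2 fold changes were -0.40, -0.66 and -1.16 with all libraries, and 0.18, 0.44 and -0.31 without C57BL/6 replicate 2.

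The paralogs resembled different miRNAs across the 6 libraries. Likeness was the root mean square difference between log2(CPM + 1) values after each miRNA was centred on its own mean, among 277 other named miRNAs with a mean of at least 10 CPM. These are descriptions over libraries that share their groups and their depths. The nearest to miR-146a-5p was miR-223-3p, at 0.14, followed by miR-344-3p (0.24), miR-511-3p (0.25), miR-212-3p (0.27) and miR-223-5p (0.27). All 5 were highest in C57BL/6 replicate 2, with ratios to the other C57BL/6 libraries from 3.87 to 8.36. They were picked for likeness to miR-146a-5p, which peaks there, so this shared peak follows from the choice. miR-223-3p averaged 492 ± 457 CPM in controls and 367 ± 35.4 CPM in the MRL/lpr libraries (SD, n = 3 each), and miR-344-3p was close to the minimum level, at 11.5 ± 9.71 and 9.82 ± 1.79 CPM.

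The nearest to miR-146b-5p was miR-500-3p, at 0.14, followed by miR-669l-5p (0.19), let-7i-3p (0.20), miR-125b-5p (0.22) and miR-30c-5p (0.22). Of these, miR-125b-5p passed the strain test, at 467 ± 124 CPM in controls and 859 ± 37.4 CPM in the MRL/lpr libraries (SD, n = 3 each; log2 fold change 0.88 ± 0.22 SE, edgeR adjusted p = 0.0451). The other 4 had log2 fold changes from 0.37 to 0.66 and did not pass. The paralogs lay 0.74 apart. In order of likeness to miR-146a-5p, miR-146b-5p came 70th of 277, and in order of likeness to miR-146b-5p, miR-146a-5p came 245th.

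**Figure D4:**
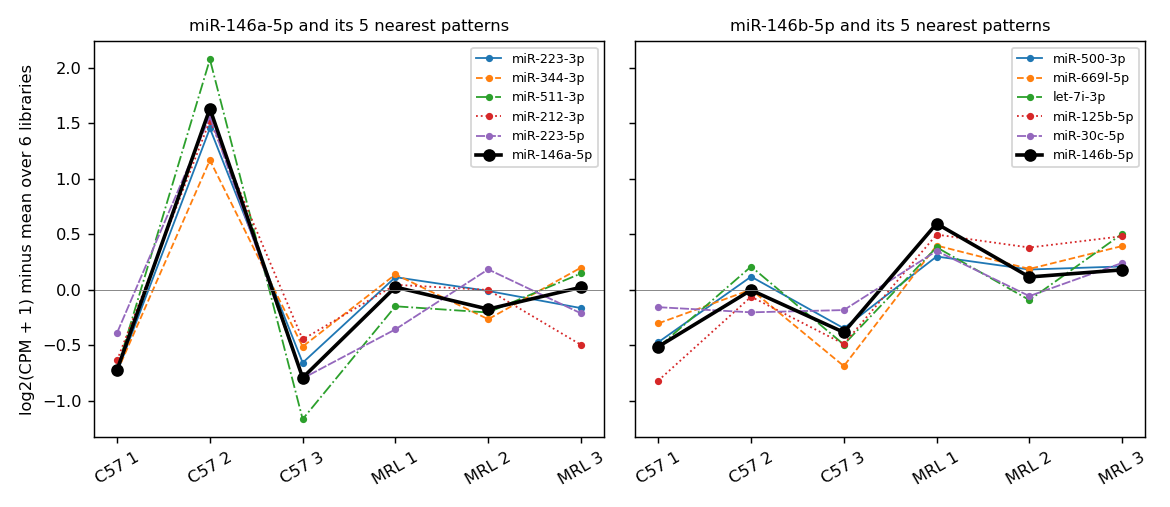
Log2(CPM + 1) of miR-146a-5p (left) and miR-146b-5p (right), in black, and of the 5 miRNAs nearest to each, centred on the mean over the 6 libraries (C57 is C57BL/6 and MRL is MRL/lpr, with replicate numbers), with lines only joining the values of a miRNA. The left group peaks in C57BL/6 replicate 2, and in the right group no such peak is seen. Both follow from picking miRNAs by likeness to these arms.

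Across the alternative settings, the fold change of miR-146a-5p turned direction with a single library and that of miR-146b-5p did not turn with any. For miR-146b-5p the log2 fold change stayed between 0.45 and 0.79 in all 17 settings that kept the paralogs apart, with edgeR, DESeq2 or limma adjusted p from 0.0634 to 0.435. For miR-146a-5p it was below 0 in 17 of 18 settings, from -0.97 without C57BL/6 replicate 1 to -0.03 with the replicate number as a block, and 0.74 without C57BL/6 replicate 2. Those 17 settings all kept C57BL/6 replicate 2 and include the summed 5p arms, so they are not separate evidence of a direction. limma-voom, which averages log2 values, gave -0.09. The sum of the 5p arms, which takes no account of which paralog a read came from, had a log2 fold change of -0.54 (edgeR adjusted p = 0.725).

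**Figure D5:**
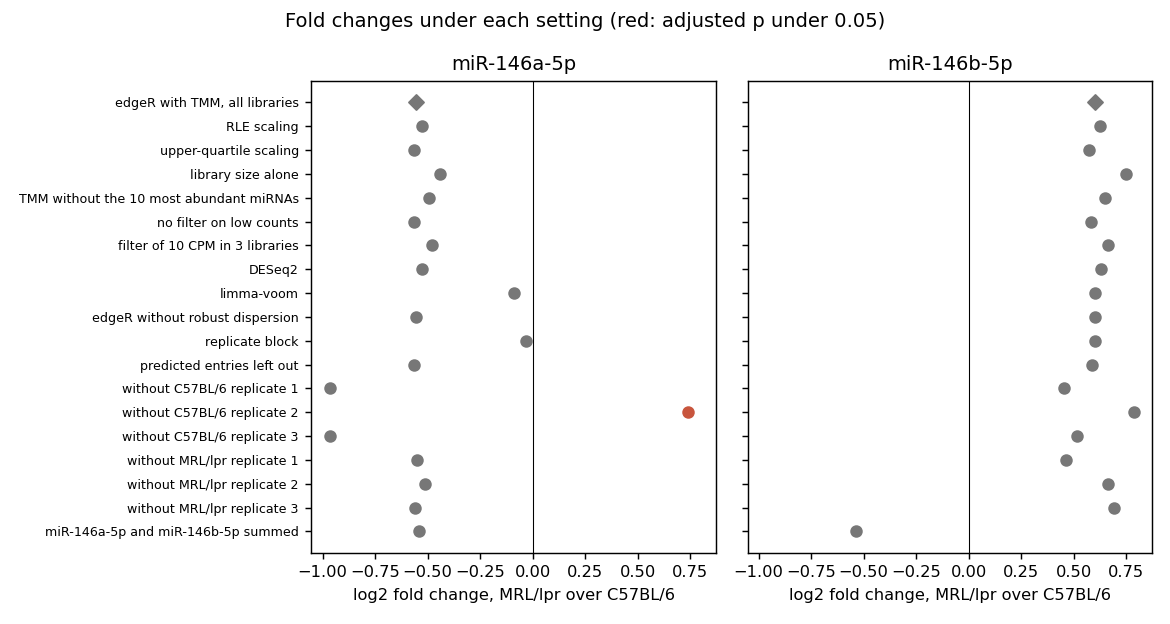
Log2 fold change of MRL/lpr over C57BL/6 for miR-146a-5p (left) and miR-146b-5p (right) under each setting, with the diamond for edgeR with TMM scaling on all libraries and red for an adjusted p under 0.05. The only red point is miR-146a-5p without C57BL/6 replicate 2, at 0.74, and in the bottom row both panels show the summed 5p arms, at -0.54.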

How the data were processed

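Total RNA from kidney was extracted with TRIzol and made into small RNA libraries by adapter ligation, PCR and gel selection, per the labels' protocols. The authors deposited 1 table of raw counts, a whole number for each mature miRNA and library. Bowtie2, DESeq2 and GRCm38.p6 are named in the submitters' processing notes. The miRNA annotation, strand, molecular identifiers and handling of reads matching several miRNAs were not given in the sources used here. Columns were matched to samples by strain, age and replicate number.

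Strains were compared with edgeR 4.0.16 in R 4.3.3 (filterByExpr with minimum count 10 and minimum total 15, TMM, robust quasi-likelihood test of strain) and Benjamini-Hochberg adjustment over all tested miRNAs, threshold 0.05. Intervals are at 95%. Ratios were tested with limma 3.58.1 on log2(count + 0.5) of every miRNA minus the denominator, beside an exact two-sided permutation of libraries. The limma SE of a ratio draws on the spread of all miRNAs in its fit as well as its own. Tests were tried on simulated counts. Alternatives included DESeq2 1.42.0 and limma-voom. Replicates of a group differed far more than counting allows (chi-square divided by degrees of freedom, 144 to 869), so none was a copy. Since separate animals are not stated, p-values reflect only the spread of these libraries, which may be technical. Named miRNAs were the 4 arms, the 5 nearest in pattern to each 5p arm and, per list, the called members (else the 2 most abundant), plus those past the threshold without C57BL/6 replicate 2. Some list members outside this rule, such as miR-342-3p, miR-132-5p and miR-212-5p, were also named. Members and lists were chosen with earlier results of these data known. Sequences came from RefSeq (4 of 4 arms matched) and gene positions from GENCODE M21. Figures were drawn with matplotlib 3.10.9.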

Additional observations from a re-analysis of the deposited data

How the results depend on the processing

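The number of miRNAs called among all tested was 28, and 64 without a filter on low counts, 51 with DESeq2 and 13 with the replicate block; leaving out 1 library at a time gave 5 to 54. Replicate numbers did not pair the samples (correlations of same-numbered deviations -0.37, 0.034 and -0.37), and with the replicate block the log2 fold changes were -0.03 for miR-146a-5p and 0.60 for miR-146b-5p (edgeR adjusted p = 0.979 and 0.289). Leaving out 1 library gave -0.97 to 0.74 for miR-146a-5p, the last without C57BL/6 replicate 2. The summed 5p arms gave -0.54 where miR-146b-5p alone gave 0.60; by construction the sum is nearly all miR-146a-5p. Relative to leukocyte miRNAs, miR-146b-5p ran from -0.31 (without C57BL/6 replicate 2) to 0.49 (without C57BL/6 replicate 3), and was -0.019 without MRL/lpr replicate 1. Relative to kidney epithelium miRNAs, miR-146a-5p ran from -1.05 (without C57BL/6 replicate 1) to 0.40 (without C57BL/6 replicate 2), and miR-146b-5p from -0.098 (without C57BL/6 replicate 1) to 0.44 (without C57BL/6 replicate 2), with -0.046 without MRL/lpr replicate 1. No ratio passed in any setting run. For changes of direction with a library left out, the cause was not tested. Library-size scaling moved the median log2 fold change of all tested miRNAs by 0.15, and miR-146b-5p was then 0.75. The arm ratio test was not run, since both 3p arms had at most 2 counts in a library; without the filter their edgeR adjusted p were 0.604 and 0.995.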
